A study of Mus musculus with 4 samples.

Results

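Isolated SRSF4 contacts in heart muscle cells were examined: clusters of crosslink sites that stood alone on their strand of the nuclear genome and carried a moderate number of cDNAs. Sites at most 50 nt apart on 1 strand were joined into a cluster. A cluster was taken when no other cluster on the same strand lay less than 20000 nt away, when it had fewer than 50 sites and when its cDNAs summed to between 15 and 99. These criteria gave 181 of 7246 nuclear clusters (2.5%) and 181 of 4761 lone nuclear clusters (3.8%). The 181 clusters held 2141 sites and 6171 cDNAs, or 6.51% of nuclear sites and 6.99% of nuclear cDNAs. The clusters were chosen by site spacing, number of sites and cDNA sum, so these quantities, and the widths and heights that depend on them, are described without a test.

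The source was a culture of heart muscle cells from newborn C57BL/6 mice (stage P0-1) that received modified RNA for SRSF4 fused to GFP (SRSF4-GFP modRNA, 15 μg). The cells were crosslinked with ultraviolet light 48 h later. The labels list 4 libraries, which form 1 group, and the file gives 1 pooled value per nucleotide, so no spread between libraries could be computed and neither a control pull-down nor a second condition was at hand. The cells carry the fusion protein from transfected RNA, so the sites are read as contacts of the tagged and added protein. Without a control pull-down, background sites could not be told apart from these. The labelled cell type could not be checked against marker genes, because the sites are given on mm9 and no gene annotation of that build was used here.

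SRSF4 is a member of the serine and arginine-rich protein family, whose members bind RNA through RNA recognition motifs and help the spliceosome to choose exons. Their contacts often lie on short exonic enhancer sequences, and some family members also act in RNA export and translation. In iCLIP the protein is fixed to RNA by light, and the cDNA made from the trimmed RNA tends to end next to the fixed nucleotide. The number of cDNAs at a nucleotide therefore counts contacts, and is also shaped by how abundant the RNA is and by which bases crosslink readily. In a pooled culture, more cells that hold an RNA and more of that RNA per cell cannot be told apart.

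The lone clusters were small. Their median was 26 cDNAs (quartiles 19 and 41) on 10 sites (quartiles 8 and 15). The median width from first to last site was 21 nt (95% exact order-statistic interval 17 to 24, quartiles 12 and 38), with a range from 1 to 212 nt. Of the 181 clusters, 34 (18.8%) were at most 10 nt wide and 17 (9.39%) were wider than 50 nt. Sites filled a median of 54.5% of the nucleotides between the ends, and in 17 clusters every nucleotide was a site. By depth, the 81 clusters of 15 to 24 cDNAs had a median width of 16 nt, the 67 clusters of 25 to 49 cDNAs 24 nt, and the 33 clusters of 50 to 99 cDNAs 39 nt.

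The core of each cluster was measured as the shortest stretch with a set share of its cDNAs, which by definition cannot exceed the width. The shortest stretch holding at least 50% of the cDNAs had a median of 3 nt, and the shortest stretch holding at least 80% had a median of 10 nt. A median of 72.1% of the cDNAs lay within 5 nt of the highest nucleotide. Single-cDNA sites made up a median of 5 sites per cluster.

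The highest nucleotide held a median of 26.5% of a cluster's cDNAs (95% exact order-statistic interval 23.7% to 29.6%, quartiles 18.5% and 37.5%). The share ranged from 8.45% to 100%. It was 50% or more in 27 clusters (14.9%), from 20% to under 50% in 99 (54.7%) and under 20% in 55 (30.4%). The median share was 28.6% in the band of 15 to 24 cDNAs, 25% at 25 to 49 and 23.3% at 50 to 99. Across the 181 clusters the share and the width had a Spearman correlation of -0.57, and the cDNA sum and the width one of 0.38. These are descriptions over clusters of 1 pooled list, and both measures come from the same cDNAs.

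**Figure D1:**
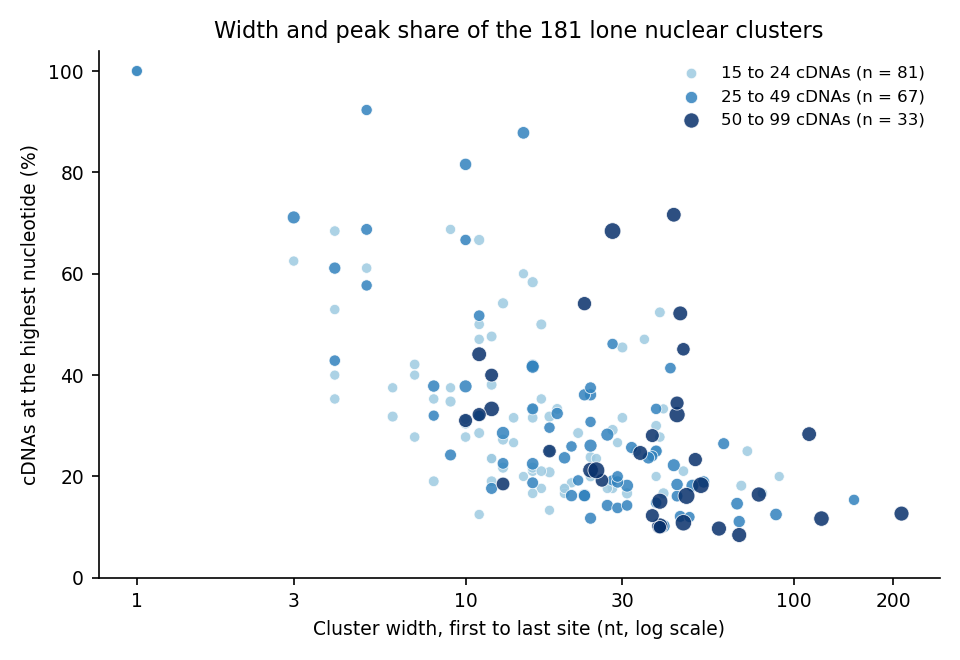
Width in nt on a log axis (horizontal) against the percent of cDNAs at the highest nucleotide (vertical) for each of the 181 lone clusters; colour gives the band of summed cDNAs and point area grows with the sum. Clusters holding 50% or more at 1 nucleotide are at most 45 nt wide, and the widest cluster, at 212 nt, holds 12.7%.

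The 27 clusters with 50% or more of their cDNAs at 1 nucleotide were between 1 and 45 nt wide, with a median of 10 nt. They lay on 17 chromosomes, 10 on the plus strand and 17 on the minus strand. They included 4 of the 33 clusters of 50 to 99 cDNAs (12.1%), near their share of 14.9% among all 181 clusters. The deepest of these 4 was at chromosome 4, 104394412 to 104394439 (plus strand), where 65 of 95 cDNAs (68.4%) fell at 104394430. The nucleotide before it held 8 cDNAs, the second highest value in the cluster.

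The 5 clusters with the highest share were extreme cases of the same form. At chromosome 16, position 12627556 (minus strand), a single listed nucleotide carried 25 cDNAs, and the next cluster on that strand was 1357155 nt away. At chromosome 14, position 62345864 (minus strand), a single nucleotide carried 15 cDNAs. These were the only 2 of the 181 clusters made of 1 site. At chromosome 2, 172775237 to 172775241 (plus strand), 24 of 26 cDNAs (92.3%) fell at 172775238, with 1 cDNA at each of its other two sites. At chromosome 6, 74401818 to 74401832 (minus strand), 36 of 41 cDNAs (87.8%) fell at 74401818. That position is the 3′ end of the cluster, and no site followed it. At chromosome 12, 38730220 to 38730229 (plus strand), 31 of 38 cDNAs (81.6%) fell at 38730229, again the last site in the direction of transcription. After the clusters of 1 site, the narrowest were 3 nt wide, and there were 2 of these. The one with the larger sum was at chromosome 17, 12336953 to 12336955 (plus strand), where 3 adjacent nucleotides held 1, 32 and 12 cDNAs. The other, with 16 cDNAs, was at chromosome 14, 121303017 to 121303019 (minus strand).

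At the other end, the 5 clusters with the lowest shares had no dominant nucleotide. Each had from 2 to 4 peaks by the count described below. The lowest share, 8.45%, belonged to a cluster at chromosome 1, 124090428 to 124090495 (minus strand). Its 71 cDNAs were spread over 32 sites in 68 nt, and 2 adjacent nucleotides at its 3′ side held 6 cDNAs each. At chromosome 17, 46541065 to 46541123 (plus strand), 72 cDNAs lay on 32 sites, and maxima of 7, 6 and 6 cDNAs were spaced 19 nt apart. On the same strand from 45757619 to 45757657, 50 cDNAs lay on 22 sites with at most 5 at any of them. Those 2 chromosome 17 clusters were 783408 nt apart, with no other member of the set between them on the strand. At chromosome 13, 64661126 to 64661165 (minus strand), 49 cDNAs lay on 27 sites, again with at most 5 at 1 nucleotide. At chromosome 8, 107696434 to 107696472 (plus strand), 88 cDNAs lay on 28 sites, and 3 nucleotides shared the maximum of 9.

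**Figure D2:**
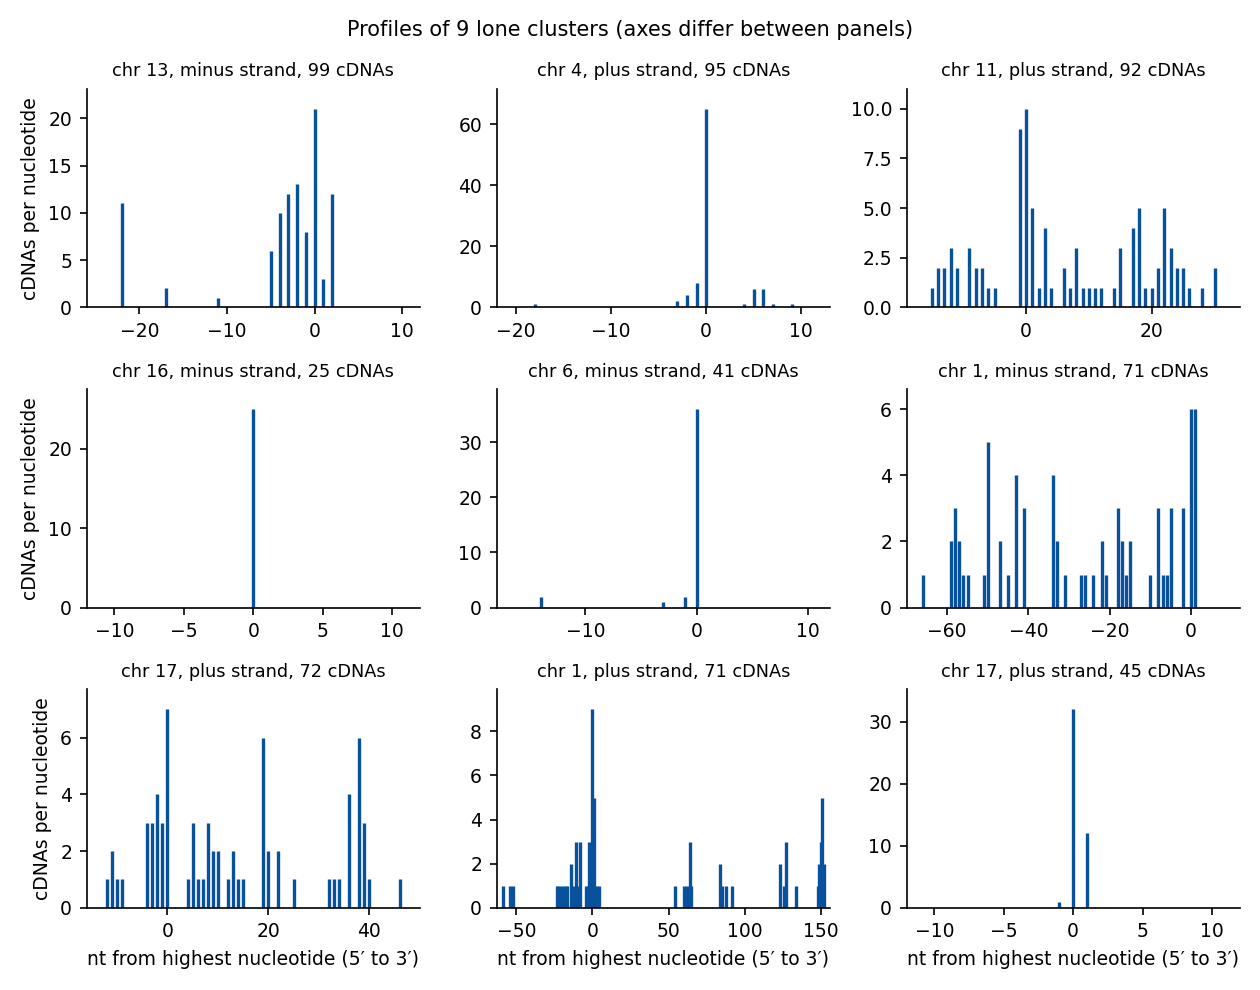
Pooled cDNAs per nucleotide (vertical, linear, a different scale in each panel) against the distance in nt from the highest nucleotide, 5′ to 3′ (horizontal), for 9 lone clusters named in the text. The chromosome 16 cluster is 1 nucleotide of 25 cDNAs, whereas the chromosome 1 minus-strand cluster spreads 71 cDNAs over 32 sites and nowhere exceeds 6.

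The 10 deepest clusters, from 78 to 99 cDNAs, differed in form, with shares at the highest nucleotide from 10.2% to 68.4% and widths from 12 to 52 nt. A cluster at chromosome 3, 19460250 to 19460296 (plus strand) held 99 cDNAs on 25 sites. It had 2 equal maxima of 16 cDNAs spaced 27 nt apart and a further nucleotide of 12 cDNAs at 42 nt. A cluster of the same sum at chromosome 13, 16132962 to 16132986 (minus strand) had only 11 sites. There 21 cDNAs marked the highest nucleotide, 63 lay before it and 15 after it, and 11 of the 63 fell on the first site, 22 nt before the maximum. At chromosome 4, 43967430 to 43967473 (plus strand), adjacent nucleotides held 24 and 28 of 87 cDNAs. At chromosome 5, 74270504 to 74270515 (minus strand), 78 cDNAs were packed into 12 nt with 26 at the highest nucleotide. At chromosome 4, 51825499 to 51825522 (minus strand), the highest nucleotide held 17 of 80 cDNAs, and the 3 nucleotides before it held 13, 10 and 11. The profile was broader at chromosome 11, 101466270 to 101466315 (plus strand), where 92 cDNAs filled 37 of 46 nt and the maximum was 10. At chromosome 1, 167739798 to 167739836 (minus strand), 2 maxima of 12 and 13 cDNAs stood 10 nt apart among 86 cDNAs. The remaining 3 of the 10 included the chromosome 4 cluster of 95 cDNAs and the chromosome 8 cluster described above. The last was a chromosome 16 cluster of 93 cDNAs, described below with its neighbour on the opposite strand.

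Width came from scattered single contacts as well as from separate peaks. The widest cluster, at chromosome 1, 133470364 to 133470575 (plus strand), had 38 sites, the most of any of the 181, and 71 cDNAs over 212 nt. Its highest nucleotide held 9 cDNAs, and a second group of sites reached 5 cDNAs at a distance of 151 nt. Of its 38 sites, 24 had a single cDNA. The second widest, at chromosome 17, 71313021 to 71313172 (plus strand), had 26 cDNAs on 21 sites, 18 of them single. The third, at chromosome 6, 47731620 to 47731740 (plus strand), was 121 nt wide only through 4 single cDNAs far from its centre: 80% of its 77 cDNAs fell in a stretch of 15 nt. At chromosome 1, 104524811 to 104524921 (minus strand), 70.1% of 67 cDNAs lay within 5 nt of the maximum in a cluster of 111 nt. The fifth, at chromosome 16, 91534830 to 91534919 (plus strand), carried only 15 cDNAs on 12 sites over 90 nt.

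Peaks within a cluster were counted on the profile summed over 5 nt. The highest value was taken first, then the highest remaining value at least 15 nt from those taken. This went on while that value was at least 25% of the highest one, so a shoulder of a peak could also be counted. By this spacing a cluster of at most 15 nt could hold only 1 peak, and the lower quartile of width was 12 nt. One peak was found in 128 clusters (70.7%), a pair in 37 (20.4%) and 3 or more in 16 (8.84%). In the 53 clusters with more than 1 peak, the 2 highest were spaced by a median of 25 nt (range 15 to 151 nt). A single peak was found in 65 of 81 clusters of 15 to 24 cDNAs, 43 of 67 of 25 to 49 and 20 of 33 of 50 to 99. The second highest nucleotide was next to the highest in 94 of the 179 clusters with more than 1 site (52.5%), 2 to 5 nt away in 42 and farther in 43.

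Aligned on the highest nucleotide, the mean profile was by construction highest there and lower on both sides. The fall was not steady: the mean was 0.88% at 8 nt after the maximum and 1.31% at 9 nt. That nucleotide held 31.3% ± 18.02 (mean and SD over 181 clusters) of the cDNAs. The nucleotide before it held 8.83% ± 8.36 and the one after it 8.02% ± 8.48. At 2 nt the means were 4.51% before and 4.38% after, and at 5 nt they were 1.70% and 1.64%. A site was listed at the nucleotide before the maximum in 139 clusters and at the nucleotide after it in 123. An average of 4.25% of the cDNAs lay farther than 30 nt away.

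The maximum lay toward neither end of the cluster by a measurable margin. It was nearer to the 5′ end than to the 3′ end in 85 of 173 clusters (49.1%, 95% exact interval 41.5% to 56.8%), after 8 with a maximum at the exact middle were left out (two-sided exact binomial test against 50%, p = 0.88, and 1 after Benjamini-Hochberg adjustment over 5 tests). More cDNAs followed the maximum than preceded it in 91 of 175 clusters (52.0%, interval 44.3% to 59.6%, exact binomial p = 0.65, adjusted p = 1). Ties for the maximum take the first nucleotide. Without tied clusters the share nearer to the 5′ end was 45.5% (exact binomial p = 0.32). The share with more cDNAs after the maximum was then 46.2% (exact binomial p = 0.41). With sums from 10 cDNAs it was 56.6% (exact binomial p = 0.037). The maximum was the first site in 12 clusters and the last in 20. These tests treat clusters as independent and cover counting error only.

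**Figure D3:**
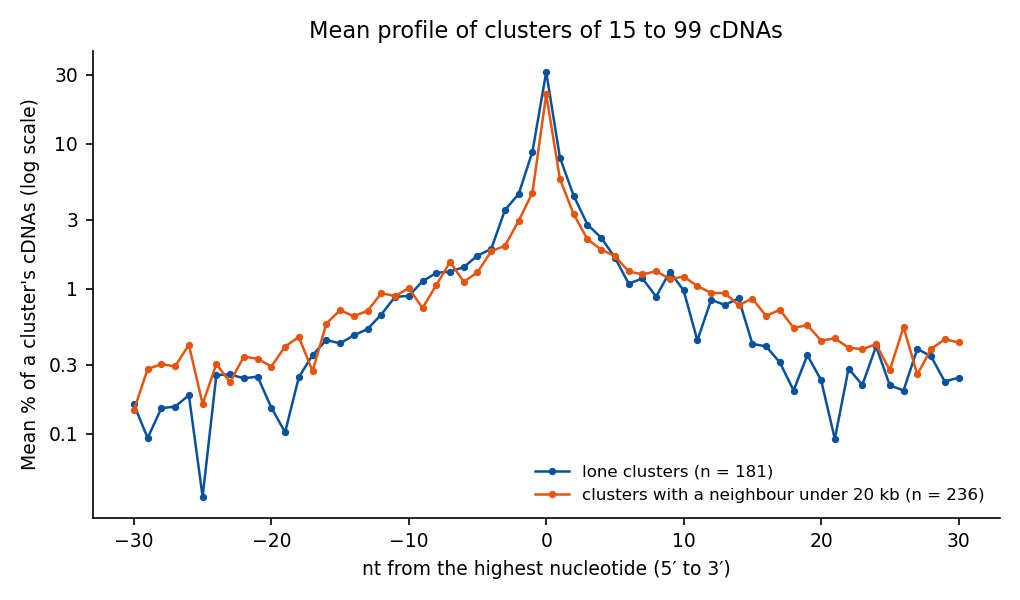
Mean percent of a cluster's cDNAs (vertical, log axis) at each distance from the highest nucleotide, 5′ to 3′ (horizontal, nt), for the 181 lone clusters (blue) and for 236 clusters of the same cDNA range with a neighbour less than 20 kb away on the strand (orange). The lone clusters hold 31.3% at the maximum and the others 22.0%, and both profiles are lower on either side, as alignment on the maximum requires.

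With sites joined at 50 nt, clusters of the same cDNA range with a neighbour on the strand were broader. There were 236 of these, with fewer than 50 sites and 15 to 99 cDNAs. Their median width was 46.5 nt against 21 nt for the lone clusters, and the share at the highest nucleotide was 18.8% against 26.5%. A single peak was found in 36.4% against 70.7%, but this count depends on width, since a cluster of at most 15 nt can hold only 1 peak. Within bands the widths were 38.5 against 16 nt at 15 to 24 cDNAs, 50 against 24 nt at 25 to 49, and 61 against 39 nt at 50 to 99. The 236 clusters came from only 110 regions (stretches of clusters less than 20000 nt apart), and 49 of them lay in 1 region on the minus strand of chromosome 2 and 29 in 1 on the minus strand of chromosome 14. With each region counted once, at the median of its clusters, the median width was 36.5 nt and the median share 21.3%. Without these 2 regions the 158 remaining clusters had medians of 39 nt and 20%. No test was made, since spacing and heights chose the sets. The next cluster on the strand lay at a median of 120 nt from the 236 clusters. Their widest step between successive sites had a median of 11 nt, against 5 nt in the lone clusters. Joining at 50 nt can link nearby sites into 1 wide cluster where sites are dense. How far this made the differences in width, share and peaks was not tested.

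The lone clusters lay on both strands in nearly equal number. Of the 181 lone clusters, 90 lay on the plus strand (49.7%, 95% exact interval 42.2% to 57.2%, two-sided exact binomial p = 1, adjusted p = 1). Among the 4541 lone clusters of fewer than 15 cDNAs the plus share was 50.03% (two-sided Fisher's exact test against the 181, p = 0.94, adjusted p = 1). Among the 236 clusters that were not lone it was 27.5% (Fisher's exact p = 4.0e-06, adjusted p = 2.0e-05), but those clusters share regions and therefore strands. Counted once per region the share was 44.5% of 110, and the difference from the lone clusters no longer passed the test (Fisher's exact p = 0.40). Without the 2 regions just named it did not pass either (Fisher's exact p = 0.13), nor did it with sums from 30 cDNAs (exact p = 0.085) or with single-cDNA sites left out (exact p = 0.089).

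The lone clusters were spread over 20 of the 21 nuclear chromosomes in the list, with between 5 and 16 on each of the 20. Chromosome 4 had the most, 16 or 8.84% (95% exact interval 5.14% to 13.96%), with 8 on each strand. Chromosomes 1 and 5 followed with 13 each and chromosome 17 with 12. Chromosome 19 had the fewest among the 20, 5 clusters, and chromosome Y had none. The 3 leading chromosomes held 23.2% of the lone clusters, and the 3 leading ones held 48.7% of the 236 clusters that were not lone, or 27.2% of 158 without the 2 regions that hold most of these. On none of the 21 chromosomes did the exact interval of the lone share exclude the share of that chromosome among lone clusters of fewer than 15 cDNAs. Chromosome 2 had 4.97% of the 181 clusters against 24.2% of those that were not lone, and chromosome 14 had 3.87% against 18.2%. Of the clusters that were not lone, 49 of the 57 on chromosome 2 and 29 of the 43 on chromosome 14 lay in 1 region each. Without these 2 regions the shares were 5.06% (8 of 158) on chromosome 2 and 8.86% (14 of 158) on chromosome 14.

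**Figure D4:**
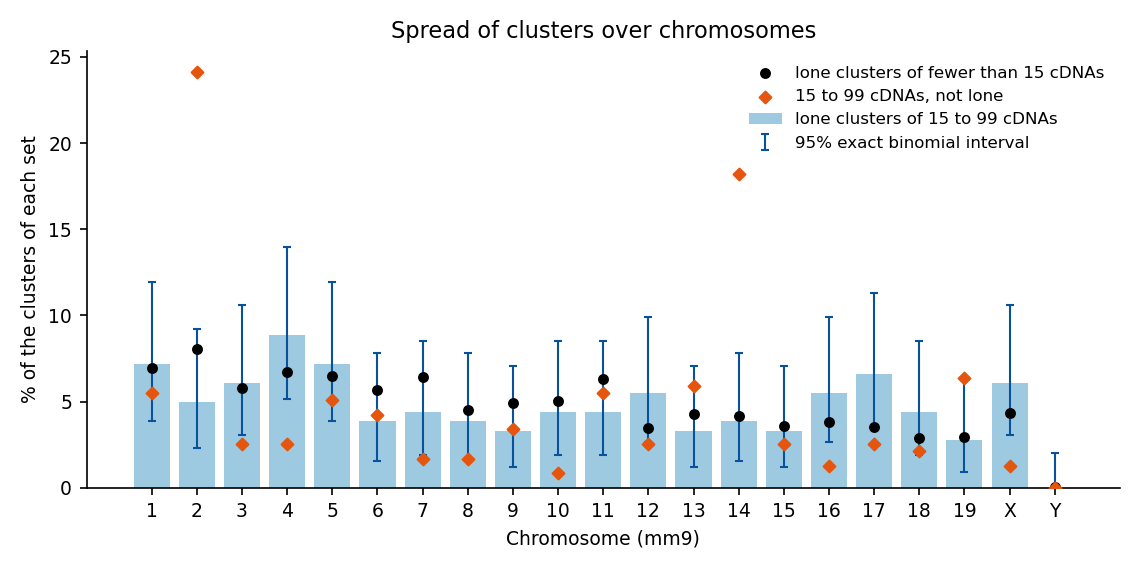
Percent of clusters on each mm9 chromosome: bars with 95% exact binomial intervals for the 181 lone clusters of 15 to 99 cDNAs, black points for the 4541 lone clusters of fewer than 15 cDNAs, orange diamonds for the 236 clusters of 15 to 99 cDNAs that are not lone. Every black point lies within its interval, whereas the diamonds of chromosomes 2 (24.2%) and 14 (18.2%) stand far above the bars. Most clusters behind each of these diamonds lie in 1 region, and without the 2 regions the values are 5.06% and 8.86%.

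The clusters were isolated well past the required distance, as were lone clusters of other depths. The median distance to the next cluster on the same strand was 262382 nt. For lone clusters of fewer than 15 cDNAs it was 236327 nt, and for those of 100 or more 257679 nt. The distance was over 100000 nt in 141 of the 181 clusters (77.9%), and in 72.7% and 79.5% of those other sets. It was over 1000000 nt in 27 (14.9%), and in 11.5% and 12.8% of those other sets. On the opposite strand, which the criteria did not consider, a cluster lay within 20000 nt of 17 lone clusters (9.39%, interval 5.57% to 14.6%) and within 1000 nt of 5 (2.76%), and no opposite-strand cluster overlapped one. Of the 236 clusters that were not lone, 54 (22.9%) had an opposite-strand cluster within 20000 nt and 4 (1.69%) had one within 1000 nt. Among lone clusters of other depths, one lay within 20000 nt of 266 of the 4541 with fewer than 15 cDNAs (5.86%) and of 6 of the 39 with 100 or more (15.4%). These differences were not tested, and clusters of 1 region share their surroundings.

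In 2 of the 17 pairs the opposite cluster had 15 or more cDNAs. The deeper pair was on chromosome 16, where the plus-strand cluster from 35981665 to 35981716 held 93 cDNAs on 29 sites with 17 at 35981702. A minus-strand cluster from 35981805 to 35981885 followed 89 nt later on 34 sites with 119 cDNAs, so that the strands run toward each other. The other pair was on chromosome 6, where the plus-strand cluster of 121 nt and 77 cDNAs described above had a minus-strand cluster of 94 cDNAs on 34 sites 3280 nt away, from 47728238 to 47728340. There the strands run away from each other. The remaining 4 pairs within 1000 nt were chosen for naming after their values were seen, and their opposite clusters were small. On chromosome 12, a plus-strand cluster from 89385331 to 89385336 with 22 cDNAs had 11 cDNAs on the minus strand 57 nt away. On chromosome 3, a minus-strand cluster from 101752553 to 101752563 with 18 cDNAs had 6 on the plus strand 58 nt away. On chromosome 2, a minus-strand cluster from 163594372 to 163594387 with 19 cDNAs had 2 on the plus strand 32 nt away. The chromosome 13 cluster of 49 cDNAs described above had 2 cDNAs on the plus strand 335 nt away.

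Neither depth limit fell at a gap in the number of lone clusters. There were 14 lone clusters of 14 cDNAs, just outside, and 12 of 15 cDNAs, just inside. Their median widths were 14.5 and 15.5 nt, and their median shares at the highest nucleotide 35.7% and 30%. At the upper border, 5 lone clusters had 90 to 99 cDNAs and 4 had 100 or more and under 110, with median widths of 46 and 27 nt and median shares of 18.3% and 23.8%. Their widths ranged from 25 to 52 nt and from 9 to 69 nt, so these few clusters cannot show whether shape changes at this border. In distance, 10 clusters of 15 to 99 cDNAs had their next neighbour at 20000 nt or more and under 30000 nt, and 17 had it from 10000 nt to under 20000 nt. The limit of 50 sites removed 0 lone clusters, and the most sites in any was 38.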

How the data were processed

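A single list of crosslink positions was analysed. The deposited score of each 1 nt position is a whole number of cDNAs, with the sign giving the strand. Per the file header, the authors summed 5 numbered data sets, used 100 permutations and a 15 nt neighbourhood, and kept positions with a false discovery rate below 0.05 (mm9, Ensembl release 59). The labels list 4 libraries, and neither their relation to the 5 sets nor the handling of duplicate cDNAs and of reads with several matches is stated in those sources. The submitters' processing notes name Bowtie 0.10.1. Whether a cluster lies in a repeated sequence was not tested. A neighbourhood in that selection can favour clustered sites, and sites under the threshold are missing from the flanks. Library depth is unknown, and intervals cover counting error among clusters only. No interval is given for a share of cDNAs within 1 cluster.

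Clusters were built and measured with scipy 1.17.1, pandas 2.3.3 and numpy 2.4.6 under Python 3.11.15, after the functions were tested on simulated data. Positions are 1-based. For ties the first nucleotide in the direction of transcription counted as the highest. The named clusters are the 10 deepest, the 5 with the highest and the 5 with the lowest share at 1 nucleotide, the 5 widest, the 3 narrowest and the 5 with the most sites. The members and these lists were chosen with earlier results of these data known. Peak counts, share limits and the counts per region were chosen after the values were seen. Gene names, annotation and sequences of these clusters were not used here, since the reference at hand describes another build.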

Additional observations from a re-analysis of the deposited data

How the results depend on the processing

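The counts per region, the omission of 2 regions, the windows of 10 nt and 1 nt and the 2 narrower measures of width and share were added after the data were seen. Of the planned changes, joining sites at 15 or 100 nt, neighbours at 10000 or 50000 nt, sums from 20, neighbours on either strand and omission of single-cDNA sites gave 132 to 198 clusters, and sums from 10 or from 30 gave 276 and 78. The median width of 21 nt became 16 nt with sums from 10, 27.5 nt with sums from 30, 14.5 nt without single-cDNA sites and 10 nt for the stretch with 80% of cDNAs. The median share of 26.5% at the highest nucleotide became 23.5% with sums from 30, 33.3% without single-cDNA sites and 72.1% for the 5 nt to either side. The plus-strand share turned to 51.0% with neighbours at 10000 nt, 51.5% with sums from 20 and 51.3% with sums from 30. The share with the maximum nearer to the 5′ end turned to 51.6% with joining at 100 nt, 54.8% with sums from 10 and 50.3% without single-cDNA sites. None of these passed the exact binomial test. The share with more cDNAs after the maximum passed it with sums from 10, at 56.6% (exact binomial p = 0.037; p from 0.037 to 0.87 over 12 alternatives), and turned to 48.3% with neighbours at 50000 nt, 46.8% with sums from 30, 49.01% without single-cDNA sites, 46.2% without ties, 45.0% for 10 nt on each side and 44.4% for 1 nt. Ties take the first nucleotide, which by construction places cDNAs after it. The share with an opposite-strand cluster within 20000 nt, 9.39%, became 3.82% with neighbours at 50000 nt, 5.13% without single-cDNA sites and 0% by construction where neighbours on either strand counted. The plus-strand share of the lone clusters was 22.2 points above that of clusters that were not lone; the excess was 14.2 points with sums from 30 (exact p = 0.085), 10.4 without single-cDNA sites (p = 0.089), 5.18 with each region once (p = 0.40) and 8.58 without the 2 regions (p = 0.13), and none of these 4 passed Fisher's exact test. Smaller sets have wider intervals; beyond that the cause was not tested. No paired analysis was possible because the list pools all libraries of 1 group, and no library could be left out for the same reason.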

Other observations

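On chromosome X, 9 of the 11 lone clusters lay on the plus strand. The 11 clusters of both strands held 330 cDNAs in all, and the deepest, from 35999923 to 35999959, had 57 cDNAs on the plus strand with 12.3% at its highest nucleotide. The chromosome was singled out after its values were seen, and its strand balance was not tested.

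The selection rule kept the lone clusters apart on each strand, and they were few for the length of the genome. Wide gaps between them therefore follow in part from the choice of the set. Whether the gaps were wider than this alone would give was not tested. The closest 2 on 1 strand were minus-strand clusters of chromosome 13, at 23492690 to 23492704 and 23618340 to 23618379, which were 125636 nt apart. Minus-strand clusters of chromosome 3, at 101463014 to 101463081 and 101752553 to 101752563, came next at 289472 nt. In each of these pairs the narrower cluster held the larger share at 1 nucleotide, but this did not hold in every pair farther apart. On chromosome 13 it was 60% in the cluster of 15 nt and 16.7% in that of 40 nt. On chromosome 3 it was 50% in the cluster of 11 nt and 11.1% in that of 68 nt. The order was reversed in the next closest pair, 407482 nt apart on the plus strand of chromosome 4. There the share was 12.1% in the cluster of 45 nt and 16.7% in that of 80 nt.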
